A study of Homo sapiens with 79 samples.

Results

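The genes described here were the CEP and KIF genes of the human K562 cell line, taken as every row of the gene expression table whose symbol is CEP or KIF followed by a number, with the letter suffixes A to C that kinesin symbols carry. The rule returned 66 genes of 48453, of which 27 were CEP and 39 were KIF. It used symbols only and no measured value. A gene was tested when at least 2 libraries reached 1 FPKM (fragments per kilobase of transcript, scaled to the library's mapped fragments), which 57 of the 66 genes did (26 CEP and 31 KIF). The other 9 were CEP112, KIF12, KIF17, KIF25, KIF26A, KIF2B, KIF4B, KIF5C and KIF6, whose highest value in any library lay between 0.0392 and 0.913 FPKM.

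CEP proteins are named for their place at the centrosome, the organelle that organises microtubules, where they build centrioles, hold the surrounding material, anchor microtubules and form the base of cilia. KIF proteins are kinesins, motors that use ATP to move along or to take apart microtubules, and they carry vesicles, build the mitotic spindle and complete cytokinesis. Both families need microtubules, and several members of each rise in level as cells prepare to divide. Most of the mRNAs are long and assembled from many exons.

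In fRIP-seq, cells are lightly fixed with formaldehyde, a protein is immunoprecipitated from sheared lysate, and the RNA held with it is sequenced next to RNA of the lysate, the input. K562 is an erythroleukemia line. The libraries were 9 inputs, in 3 sets of 3, and 70 fRIP libraries for 24 antibody targets. SUZ12 and EZH2 are subunits of Polycomb repressive complex 2 (PRC2), which methylates histone H3. CBX3, phospho-CBX3, CHD1, CHD4, CHD7, CTCF, CBP, DNMT1, HDAC1, LSD1, NUP98, PCAF, PHF8, RBBP5, STAG2 and WDR5 act on or bind chromatin or, for NUP98, the nuclear pore. ADAR, HNRNPH1, HNRNPU, HUR, IMP1 and PABP bind RNA. Each fRIP had 3 libraries except EZH2 and STAG2, which had 2. All cells were untreated, all belonged to 1 line, and the labels do not tie a given input set to a given fRIP, so the 9 inputs served as 1 group.

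The erythroid genes GATA1 (63.9 to 97.2 FPKM) and HBG2 (178 to 1084 FPKM) were present in every input, and the B cell gene MS4A1 and the keratin KRT5 had medians of 0. The epithelial gene EPCAM was also present, with a median of 35.4 FPKM. Depth was estimated from the size of the FPKM step that 1 fragment makes. It ran from 1.905 to 58.48 M fragments (M for 1e6) over the fRIP libraries (median 13.32 M) and from 11.53 to 30.25 M over the inputs (median 20.48 M). The 3 SUZ12 libraries held 24.9, 22.6 and 21.4 M and the EZH2 libraries 12.57 and 9.188 M. FPKM is a share of a library, so more of a gene's RNA and less of all other RNA cannot be told apart. By the study's methods, replicates of a target were made on separate dates from separate lysates of this line.

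Most CEP and KIF mRNAs were more abundant in SUZ12 fRIP than in input. A gene was called enriched or depleted when limma's moderated test across all 25442 tested genes gave an adjusted p under 0.05 and a change over 2-fold on the log2(FPKM + 1) scale. Of the 26 CEP mRNAs 21 were enriched and of the 31 KIF mRNAs 19, while 15.3% of all tested genes were enriched. CEP19 was the one member depleted, against 8.60% of all tested genes. The median log2 fold change was 1.82 for CEP and 1.10 for KIF, and 0.01 for all tested genes. In 48 members (23 CEP and 25 KIF) every SUZ12 library lay above every input library, an order that 23.9% of all tested genes showed. In 1 member every SUZ12 library lay below every input, against 15.8% of all genes, and the groups overlapped in 8.

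**Figure D1:**
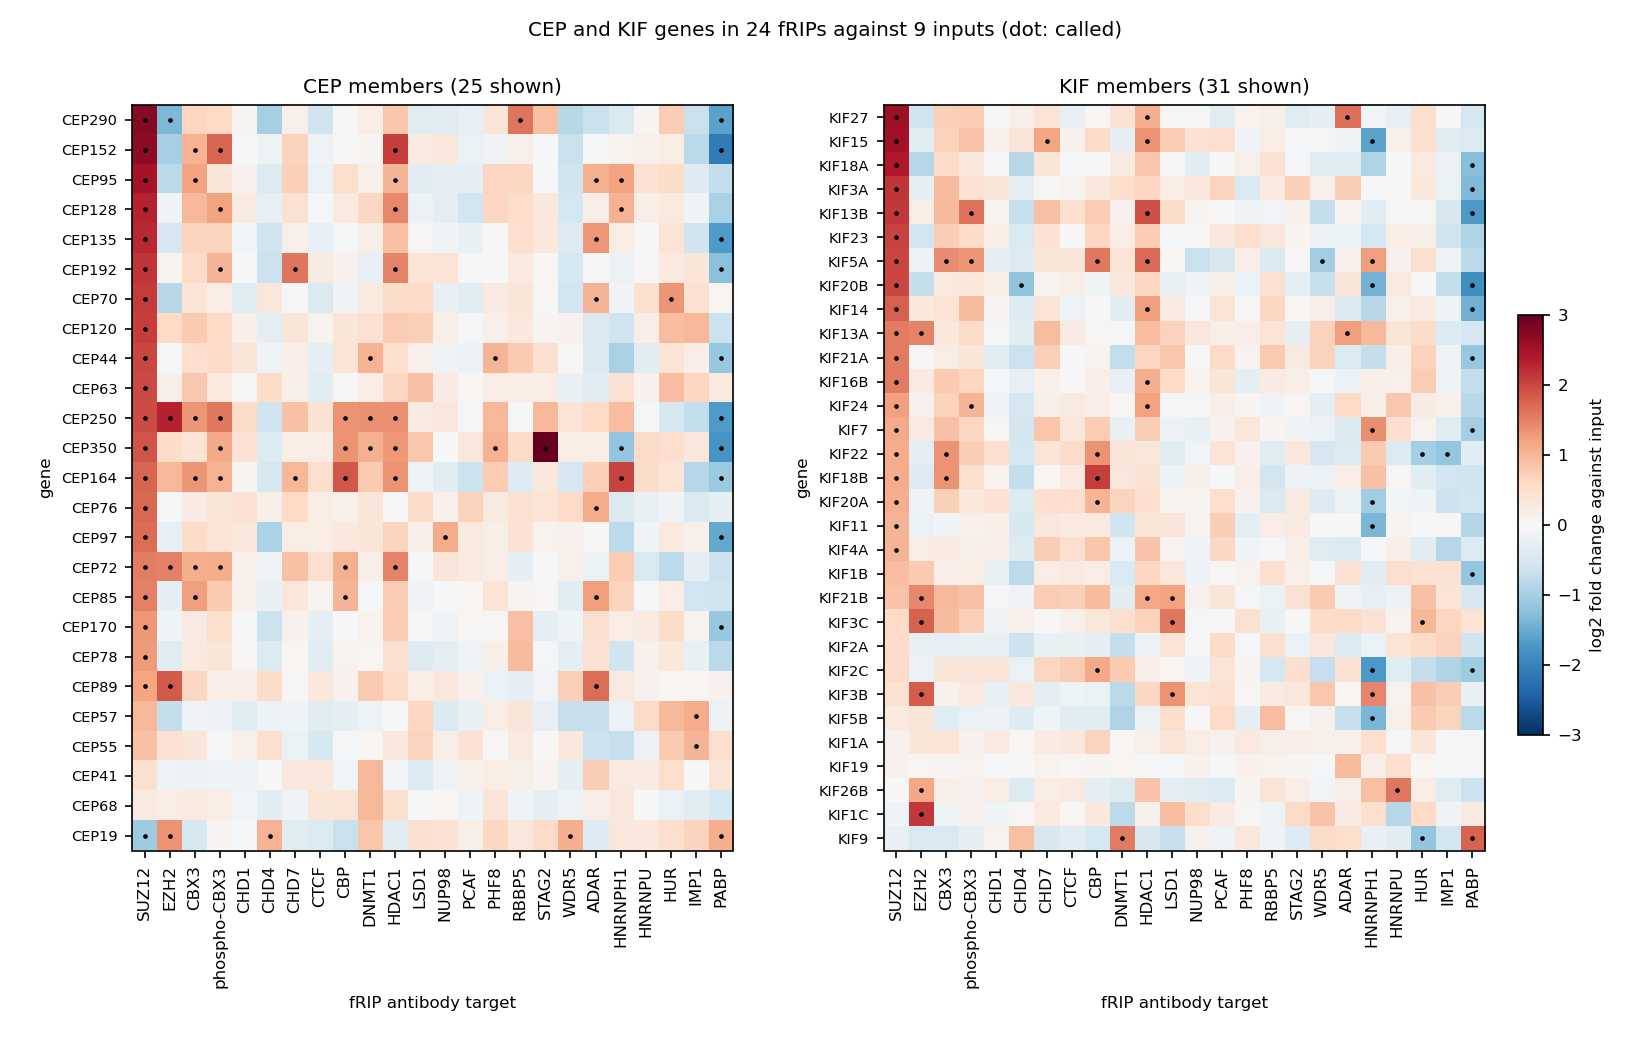
Log2 fold change against the 9 inputs (colour, from −3 in blue to 3 in red) of 25 of the 26 CEP genes (left) and the 31 KIF genes (right) in each of 24 fRIPs, with a dot where a gene was called. The SUZ12 column shows 20 CEP and 19 KIF enriched genes, PABP is mostly blue, and the darkest cell of the STAG2 column is CEP350.

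Of the CEP genes of centriole assembly and duplication 9 of 10 were enriched, with a median log2 fold change of 1.99. CEP152, the scaffold that brings the kinase PLK4 to the mother centriole, measured 183, 153 and 183 FPKM in the SUZ12 libraries. Its inputs ran from 21.8 to 33.8 FPKM with a median of 25.7, so the groups were far apart. The log2 fold change was 2.68 ± 0.14 (SE), with an adjusted p of 6.42e-25 in limma. CEP135, a component of the centriole's cartwheel, stood at 103, 78.6 and 86.9 FPKM against 15.01 to 24.4 in the inputs (median 17.6), a log2 fold change of 2.26 ± 0.11. CEP192, which recruits pericentriolar material and PLK4, gave 171, 142 and 203 FPKM against 33.2 to 46.4 (median 36.3). Its log2 fold change was 2.14 ± 0.13. CEP120, needed for centrioles to elongate, rose from an input median of 17.7 FPKM (14.4 to 22.0) to 66.4, 80.6 and 94.2, a log2 fold change of 2.09 ± 0.11. All of these genes had every SUZ12 library above every input, which was a condition of naming them. CEP57, one of the 3 CEP genes highest in input, was the member of this class not called: 172, 179 and 167 FPKM stood against 60.4 to 97.2, all higher, and its log2 fold change of 1.00 lay just under the threshold (0.9988).

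All 5 tested CEP genes of centriolar appendages and microtubule anchoring were enriched, with a median log2 fold change of 1.76. CEP128, a subdistal appendage protein, measured 48.6, 39.5 and 58.2 FPKM against 6.87 to 10.3 in the inputs (median 8.82), a log2 fold change of 2.32 ± 0.16. Among the 7 genes of cilia and centriolar satellites 5 were enriched and 1 was depleted. CEP70, which binds gamma-tubulin, held 108, 107 and 101 FPKM in SUZ12 and 14.97 to 29.4 in the inputs (median 24.7), a log2 fold change of 2.09 ± 0.15. CEP290 (chr12:88442793-88535876, minus strand, hg19), a protein of the ciliary transition zone, had the largest change of all members. It measured 84.0, 85.2 and 121.5 FPKM in SUZ12 and 12.0 to 14.7 in the inputs (median 13.4). The log2 fold change was 2.74 ± 0.14, or 6.67-fold, with a limma adjusted p of 1.37e-25. CEP19 (chr3:196433148-196439121, minus strand), a small protein that takes part in starting cilia, went the other way, with 1.56, 0.987 and 1.14 FPKM against 2.56 to 4.77 (median 3.69). Every SUZ12 library was below every input, and the log2 fold change was −1.07 ± 0.16 (adjusted p = 9.8e-08 in limma). The study's pooled input level for a target lies nearest to the mean of 1 of the 3 input sets, and against that nearest set alone CEP19 was at −0.85 and no longer called.

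CEP95, whose cell function is less defined, was the CEP gene with the highest SUZ12 level among those named here. It stood at 254, 316.0 and 319 FPKM against 43.0 to 63.8 (median 48.0), a log2 fold change of 2.51 ± 0.11 with a limma adjusted p of 5.1e-28. Much of this level was assigned to short noncoding isoforms. Those of 541, 494 and 442 bases, with 3 exons each, made up 18.9%, 16.4% and 16.2% of CEP95 isoform FPKM in SUZ12. In input they made up 6.79%, 16.2% and 11.4%. The 2754-base, 20-exon coding transcript made up 9.20% in SUZ12 and 14.4% in input. Of the centriole linker pair, CEP250 was enriched (1.95) and CEP68 was not (0.27). CEP55, the abscission protein that recruits ESCRT to the midbody, had a log2 fold change of 0.89 and was not called although every SUZ12 library was above every input.

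The mitotic and cytokinetic kinesins came next, with 10 of 12 enriched and a median log2 fold change of 1.11. KIF15, a plus-end-directed spindle motor, measured 126, 104 and 151 FPKM in SUZ12 and stayed between 19.3 and 22.9 in the inputs (median 21.0). The log2 fold change of 2.52 ± 0.10 had the lowest adjusted p of any member, 4.69e-29 in limma. KIF18A, which damps chromosome movements at the metaphase plate, rose from 16.4 to 28.0 FPKM (median 25.5) to 113, 127 and 164, a log2 fold change of 2.40 ± 0.17. KIF23, the motor of the centralspindlin complex, gave 129, 114 and 138 FPKM against 25.7 to 34.0 (median 30.97), a log2 fold change of 2.03 ± 0.10. KIF20B, a cytokinesis motor, held 96.1, 90.3 and 120 FPKM against 22.1 to 29.1 (median 24.5), a log2 fold change of 2.00 ± 0.14. These mRNAs were several times their input level in every SUZ12 library. KIF2A and KIF2C, which depolymerise microtubules and are with KIF5B the KIF genes highest in input, were the mitotic members not called. KIF2C had 165, 173 and 202 FPKM against 99.9 to 142.3, all higher, with a log2 fold change of 0.58. KIF2A had the same log2 fold change, 0.58. The change of KIF4A (1.01) and KIF11 (1.01) lay just above the threshold.

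Among the 13 cargo kinesins 6 were enriched, with a median log2 fold change of 0.94. KIF3A, a subunit of the kinesin-2 motor of intraflagellar transport, measured 26.2, 22.0 and 21.5 FPKM against 3.39 to 5.73 in the inputs (median 4.40), a log2 fold change of 2.15 ± 0.18. KIF13B, a vesicle motor, had 58.5, 66.4 and 66.8 FPKM against 10.1 to 17.3 (median 13.7), a log2 fold change of 2.12 ± 0.16. KIF5A, a kinesin-1 heavy chain best known from neurons, had 60.1, 78.3 and 72.0 FPKM against 5.17 to 24.0 (median 18.5), a log2 fold change of 2.01 ± 0.32. Its ubiquitous relative KIF5B was not called, at 91.1, 101 and 122 FPKM against 67.6 to 96.9 (median 89.0), where the groups overlapped (0.28). KIF1C, a vesicle motor, also overlapped its inputs, with 19.95, 18.95 and 23.1 FPKM against 16.8 to 31.4 (−0.12). Of the 6 remaining kinesins 3 were enriched. KIF27, a relative of the Hedgehog pathway kinesin KIF7, had 16.7, 14.8 and 15.3 FPKM against 0.979 to 2.73 (median 1.90). Its log2 fold change was 2.56 ± 0.20, but 61.6% of its 25-base words occur in other genes, so its reads could be shared. KIF7, enriched at 1.15, overlaps an opposite-strand gene over 36.2% of its exon bases, and the strand setting of the counting was not stated. For each of the 16 enriched genes whose libraries are given above, the exact two-sided permutation test of 3 libraries against 9 gave 0.0045, the smallest p it allows. These genes were chosen among those with every SUZ12 library above every input. That p therefore follows from the choice and adds no support.

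**Figure D2:**
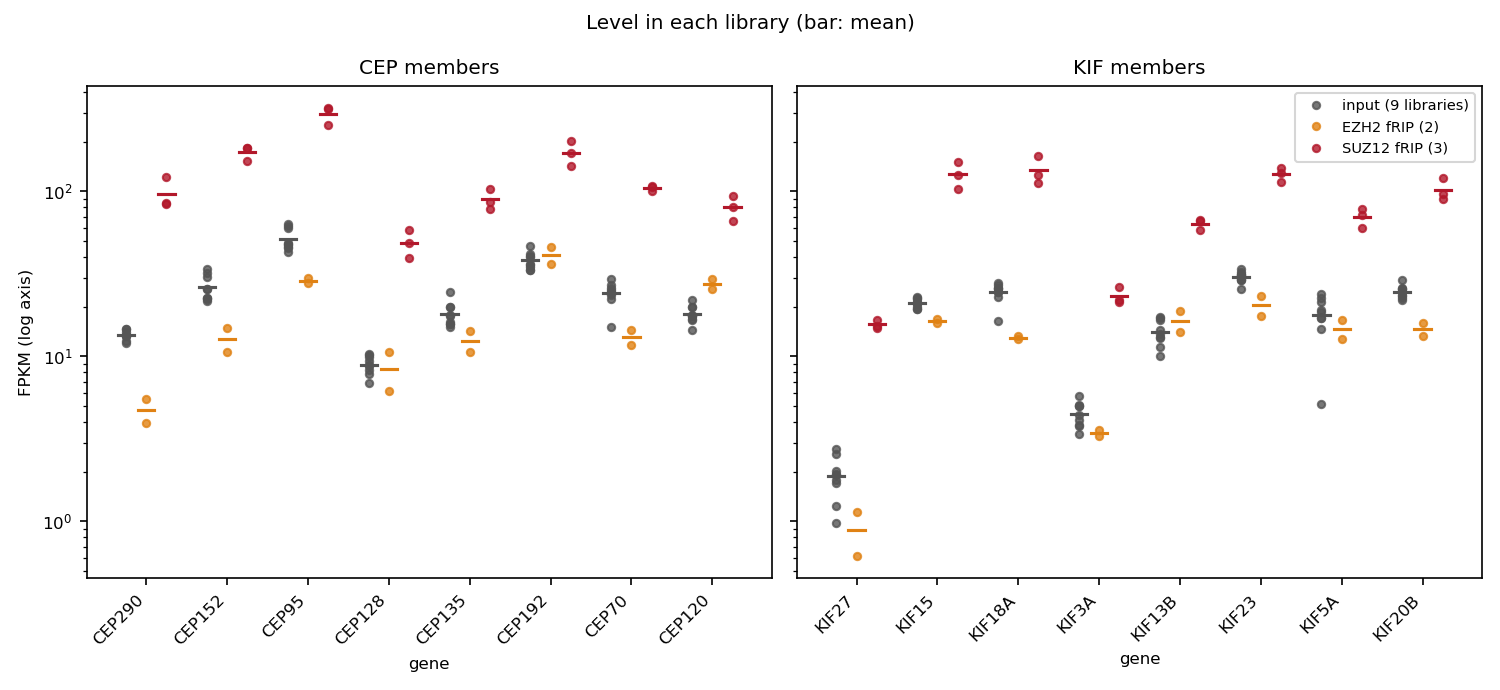
FPKM on a log axis in each of 9 input (grey), 2 EZH2 (orange) and 3 SUZ12 (red) libraries, with a bar at each mean, for the 8 CEP (left) and 8 KIF genes (right) of largest SUZ12 enrichment. Red points lie above all grey points for every gene, which was a condition of choosing these genes. EZH2 points lie among or below the grey ones for most, as for CEP290 with 5.51 and 3.92 FPKM.

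The windows printed here show coding sequence of members with a large SUZ12 change and of members without one, since they hold the 8-base motif GAAGNNGA, which was counted in all mRNAs. It is a wider form of GAAGMHGAW (M, H and W are sets of bases), a motif the study found by searching the same SUZ12 data. Its counts set beside SUZ12 values are therefore not independent of that search. Capitals mark each match, which in CEP290 is an overlapping pair. Each line is 30 bases, 5′ to 3′ on the strand of the mRNA, from the hg19 genome.
CEP290: aagagtttGAAGATGAAGAAGAaagtcctg
CEP152: atGAAGATGAagagtatgacGAAGAGGAct
CEP95: ctaggagtcaaGAAGATGAtgcacacaatg
KIF27: ttcacatccgaGAAGATGAaaaaggaaaca
KIF15: aaagagGAAGTAGAacaGAAGAAGAatgaa
KIF1C: aagaaaaggaaGAAGCCGAtcttctgctgg
KIF5B: gaagaaagtgtGAAGAAGAaattgctaaat

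The CEP290 window is chr12:88442981-88443010 (minus strand), in exon 56 of 56, and its 8298 coding bases hold 20 matches. The CEP152 window is chr15:49097777-49097806 (minus strand), in exon 2 of 27, with 7 matches in 5130 coding bases. For CEP95 it is chr17:62506306-62506335 (plus strand), in exon 3 of 20, with 3 matches in 2463. These 3 CEP genes and the next pair of kinesins are among the members of largest SUZ12 enrichment. KIF27 is shown at chr9:86523370-86523399 (minus strand), exon 3 of 18, with 4 matches in 4203 coding bases, and KIF15 at chr3:44881859-44881888 (plus strand), exon 28 of 35, with 7 in 4164. KIF18A, which was also enriched, has no match in its 2694 coding bases. The members not enriched in SUZ12 hold the motif too: KIF1C at chr17:4924130-4924159 (plus strand), exon 21 of 23, with 2 matches in 3309 coding bases, and KIF5B at chr10:32322796-32322825 (minus strand), exon 12 of 26, with 5 in 2889.

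Over whole transcripts, the members carried the motif more densely than mRNAs in general, with a median of 0.927 matches per kilobase against 0.537 over the 13579 tested mRNA genes with a transcript model. At least 1 match was present in 53 of 57 members (93.0%) and in 70.4% of all these mRNAs. The motif's opposite-strand counterpart TCNNCTTC had medians of 0.293 and 0.275 per kilobase. Within the members, motif density did not follow the SUZ12 log2 fold change (Spearman's rho = 0.02 across 57 genes, 0.17 across all mRNAs, given as descriptions, since genes share libraries). With the longest transcript of each gene in place of the isoform-weighted one, rho over the members was 0.21.

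The members' transcripts also held more exons than mRNAs in general. Weighted by isoform abundance, the median transcript had 13.2 exons over the members (10.2 for CEP, 17.1 for KIF) and 6.57 over all tested mRNAs. Members were also longer, with medians of 3725 and 2096 bases. Exon number and SUZ12 log2 fold change had a Spearman's rho of 0.52 across all mRNAs and 0.33 across the members (0.56 and 0.26 with the longest transcript). Transcript length had a rho of 0.28 across all mRNAs and 0.04 across the members (0.40 and 0.05 with the longest transcript).

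Set beside other mRNAs of like exon number, the members' median SUZ12 change was higher in each class from 5 exons up. Of the 19 members with at least 20 exons 15 were enriched (median log2 fold change 1.79), while 61.7% of the 627 other mRNAs of that class were (median 1.25). Of the 23 members with 10 to 19 exons 19 were enriched (median 1.54), against 41.7% of 3294 other mRNAs (median 0.80). In the class of 5 to 9 exons 6 of 13 members were enriched (median 1.00), against 1037 of 5762 (median 0.16). The only members with fewer than 5 exons by this weighting, CEP19 and KIF9, were not enriched, in a class where 4.14% of 3839 other mRNAs were. With the longest transcript used to count exons, 21 of 30 members with at least 20 exons were enriched, against 59.1% of the others, 16 of 19 with 10 to 19 (32.4%), 2 of 6 with 5 to 9 (10.9%) and 1 of 2 with fewer than 5 (5.30%). The last class then held CEP95, which was enriched, and CEP19. CEP95 fell there because its longest transcript is a noncoding one of 3641 bases and 2 exons. Its coding transcript of 2754 bases has 20 exons. These counts describe the lists, and the difference between members and other mRNAs was not tested.

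**Figure D3:**
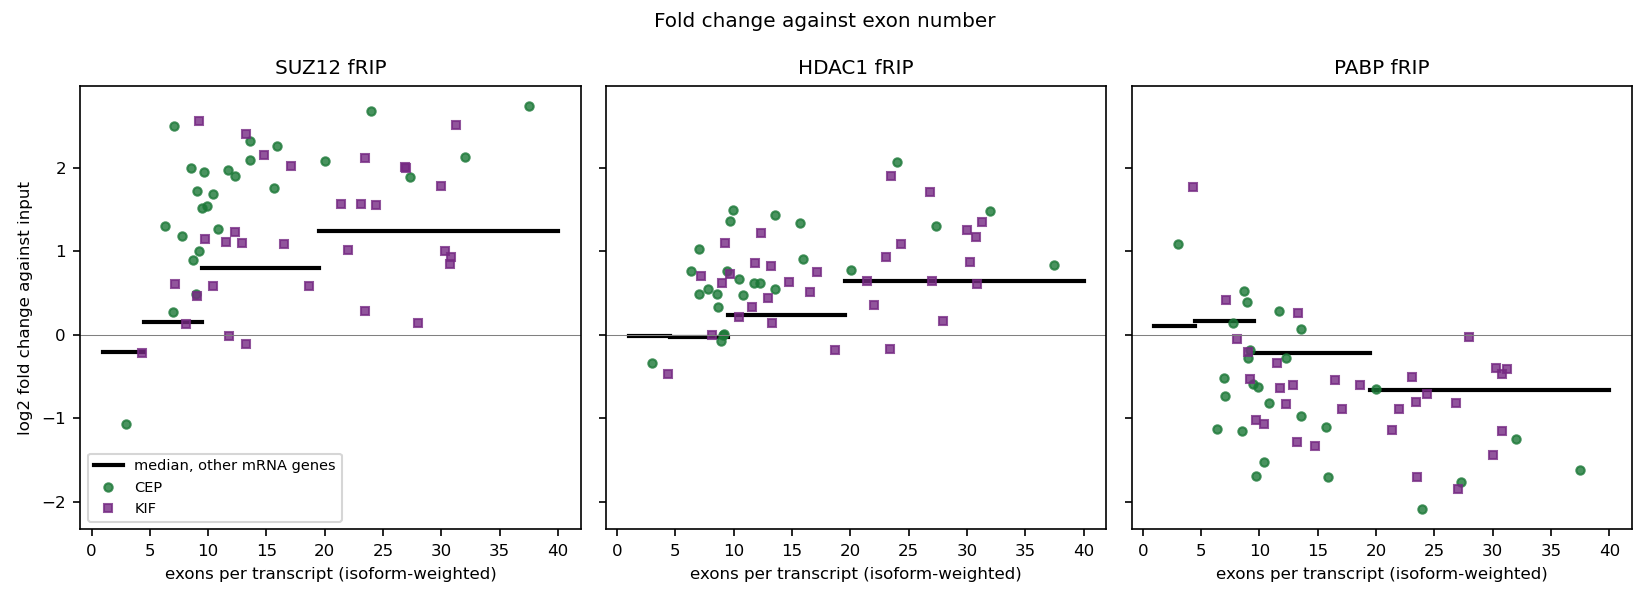
Log2 fold change against input (vertical) and isoform-weighted exons per transcript (horizontal) for CEP (green circles) and KIF genes (purple squares) in SUZ12, HDAC1 and PABP fRIP, with black bars at the median of other mRNA genes in each exon class. In SUZ12 the bars climb from −0.20 to 1.25 and most members lie above them, and in PABP the bars fall from the second class on to −0.67 at 20 or more exons.

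Genes of the same machinery outside both families were also measured in SUZ12, where 15.3% of all tested genes were enriched and 8.60% depleted. Among 49 other centrosome and centriole genes 29 were enriched (59.2%) and 2 depleted, with a median log2 fold change of 1.41. The largest changes were those of CCDC41, the gene of the appendage protein CEP83 (3.15), KIAA1009, which encodes CEP162 (2.83), and CENPJ, the centriole length regulator (2.63), and SSNA1 had the largest fall (−1.58). Among 33 kinesin partners and other motors 16 were enriched and 3 depleted (median 0.99), led by the kinetochore kinesin CENPE (2.42), the myosin MYO9A (1.99) and the dynein chain DYNC1LI2 (1.96). The light chain DYNLL2 fell by 1.47 on the log2 scale. Among 33 spindle and kinetochore genes 19 were enriched and none depleted in limma (median 1.08), with ANLN (2.92), CENPC (2.88) and BUB1B (2.64) highest. Tubulins, the subunits of the microtubule itself, had 2 of 14 enriched (14.3%, near the share of all genes) and 4 depleted, with a median of −0.60. The 2 were TUBE1 (1.59) and TUBD1 (1.29), the centriolar tubulins, and TUBA1B had the largest fall (−1.87). The 10 K562 marker genes included 6 depleted and none enriched in limma.

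SUZ12 was also compared with EZH2, the catalytic subunit of the same complex, to show whether the fRIPs of 2 PRC2 subunits recovered the same CEP and KIF mRNAs. They differed at most members. Tested against EZH2 directly, 18 CEP and 16 KIF mRNAs were higher in SUZ12, where 18.5% of all genes were, and 1 CEP and 4 KIF mRNAs were lower, where 13.1% were. All 10 centriole assembly genes and 9 of 12 mitotic kinesins were higher in SUZ12 and none was lower by limma's test. Among cargo kinesins 5 were higher and 3 lower. CEP290 averaged 96.9 FPKM in SUZ12 and 4.72 in EZH2, where the libraries stood at 5.51 and 3.92, a log2 difference of 4.09 ± 0.19. CEP152 followed at 3.67. The largest differences the other way were in CEP19 (−2.42) and KIF1C (−2.23).

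Against the mean of the other 23 fRIPs, 37 members (21 CEP and 16 KIF) were higher in SUZ12, where 13.2% of all genes were, and CEP19 alone was lower by limma's test, where 6.54% were. The differences were largest for CEP290 (2.82) and CEP152 (2.61). Of all 24 fRIPs SUZ12 had the largest log2 fold change for 34 of the 57 members, 17 in each family. Taken library by library, the median over the CEP genes was 1.67 to 1.99 in SUZ12 and −0.71 to 0.88 in the other 76 libraries. Over the KIF genes it was 0.91 to 1.33 in SUZ12 and −0.71 to 0.73 elsewhere. No other library reached the lowest SUZ12 library in either family.

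**Figure D4:**
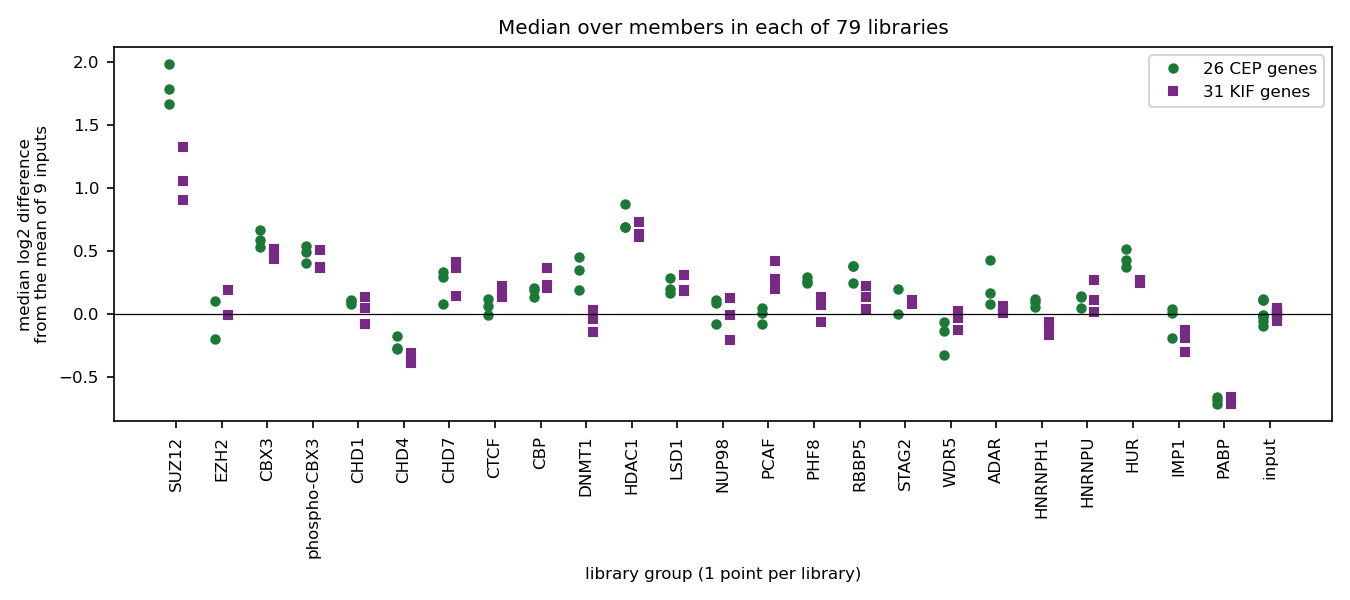
Median over 26 CEP genes (green circles) and 31 KIF genes (purple squares) of the log2 difference from the mean of the 9 inputs (vertical), with 1 point of each kind per library and the libraries grouped by antibody target along the horizontal axis. The SUZ12 libraries lie highest in both families, HDAC1 next (0.69 to 0.88 for CEP), and the PABP libraries lowest (−0.71 to −0.66 for CEP).

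EZH2 fRIP enriched 10 of the 57 members, 4 CEP and 6 KIF, where 10.5% of all genes were enriched, and depleted 1, where 9.13% were. CEP250 (chr20:34042985-34107108, plus strand), the large linker protein also called C-Nap1, measured 149 and 118 FPKM against 21.7 to 31.4 in the inputs (median 24.4), a log2 fold change of 2.31 ± 0.14 (adjusted p = 4.16e-21 in limma). KIF1C (chr17:4901245-4931696, plus strand) measured 129 and 78.3 FPKM, above all inputs, a log2 fold change of 2.12 ± 0.22. At a mean of 103.5 FPKM its EZH2 level was the highest of the 24 fRIPs, the next being LSD1 with 43.5. KIF3B and KIF3C, motor subunits of kinesin-2, were enriched by 1.81 and 1.77 on the log2 scale in EZH2 and were not called in SUZ12. CEP89, an appendage protein, rose by 1.84 in EZH2 although its libraries stood apart from each other, at 18.7 and 37.3 FPKM. CEP290 was the depleted member (−1.35 ± 0.16, adjusted p = 1.9e-10 in limma). With 2 libraries against 9 the smallest p of the exact permutation test is 0.0182, which each of these genes reached. SUZ12 and EZH2 share the same inputs, so their separate lists are not independent.

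PABP, the protein that coats poly(A) tails, gave the most depleted members on the deposited scale, though fewer than ADAR and HNRNPH1 once libraries were centred. In its fRIP 10 CEP and 9 KIF mRNAs were depleted, where 14.7% of all genes were, and 2 were enriched, where 11.1% were. CEP152 fell furthest, to 6.389, 5.182 and 4.604 FPKM, all below its inputs, a log2 fold change of −2.09 ± 0.14 (adjusted p = 1.06e-19 in limma). KIF20B (−1.84), CEP350 (−1.77) and CEP290 (−1.62) were also depleted. The enriched members were the 2 with the fewest exons when isoforms are weighted by abundance, while by the longest transcript 1 of them, KIF9, fell in the class of at least 20. KIF9 (chr3:47269488-47324941, minus strand), a kinesin of motile cilia, measured 43.7, 41.3 and 46.8 FPKM against 8.55 to 16.4 (median 12.6), a log2 fold change of 1.77 ± 0.17. A 633-base, 3-exon isoform made up 88.4% of KIF9 isoform FPKM in PABP and 61.9% in input. CEP19 rose by 1.08, and by 0.94 against the nearest input set, where it was not called. Of the 19 members with at least 20 exons 9 were depleted in PABP, against 33.7% of other mRNAs of that class. The median of all genes in PABP lay at −0.15 and moved to 0.35 when libraries were centred on a common median. On that scale 8 members were depleted and 3 enriched, where 6.93% and 20.9% of all genes were.

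HDAC1, a histone deacetylase, had 8 CEP and 8 KIF mRNAs enriched, where 8.42% of all genes were, and none was depleted by limma's test, where 5.35% were. CEP152 again changed most, with 103, 104 and 133 FPKM, all above its inputs, and a log2 fold change of 2.08 ± 0.14. KIF13B followed with 64.7, 52.0 and 48.3 FPKM (1.90 ± 0.16). Of the members with at least 20 exons 9 of 19 were enriched, against 26.2% of other mRNAs. With centred libraries the 16 members became 10 (7 CEP and 3 KIF), where 4.21% of all genes were enriched.

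STAG2, a cohesin subunit, had a single member called, where 0.979% of all genes were enriched and 3.36% depleted. It was CEP350 (chr1:179923809-180084015, plus strand), a large protein that anchors microtubules at the centriole. The number of the second STAG2 library in the table matches no sample title, so it was used by its target only. CEP350 measured 343.9 and 325.3 FPKM in the STAG2 libraries and 32.5 to 49.2 in the inputs (median 39.1). The libraries of both kinds were far apart, with a log2 fold change of 3.05 ± 0.14 (8.30-fold, adjusted p = 1.34e-26 in limma), larger than that of any member in SUZ12. Its mean level fell from 334.6 FPKM in STAG2 to 149.8 in SUZ12, 102.9 in CBP and 98.8 in HDAC1, and was lowest in PABP at 10.97. The 13414-base, 38-exon transcript made up 61.7% of CEP350 isoform FPKM in STAG2 and 60.8% in input. None of its 25-base words (0%) occurs in another gene. The other 56 tested members were not called in STAG2, although 14 members, CEP350 among them, were higher and 2 lower at an unadjusted p under 0.05, as were 12.6% and 13.8% of all genes. CEP250 lay just under the threshold (0.997), with both STAG2 libraries above every input. Among 49 other centrosome and centriole genes 4 were enriched in STAG2 (8.16%). The study included STAG2 as a negative control, because bulk RNA did not appear enriched in it. It then reported a small, strongly enriched set of transcripts whose proteins locate to centrosomes, centrioles and spindles.

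**Figure D5:**
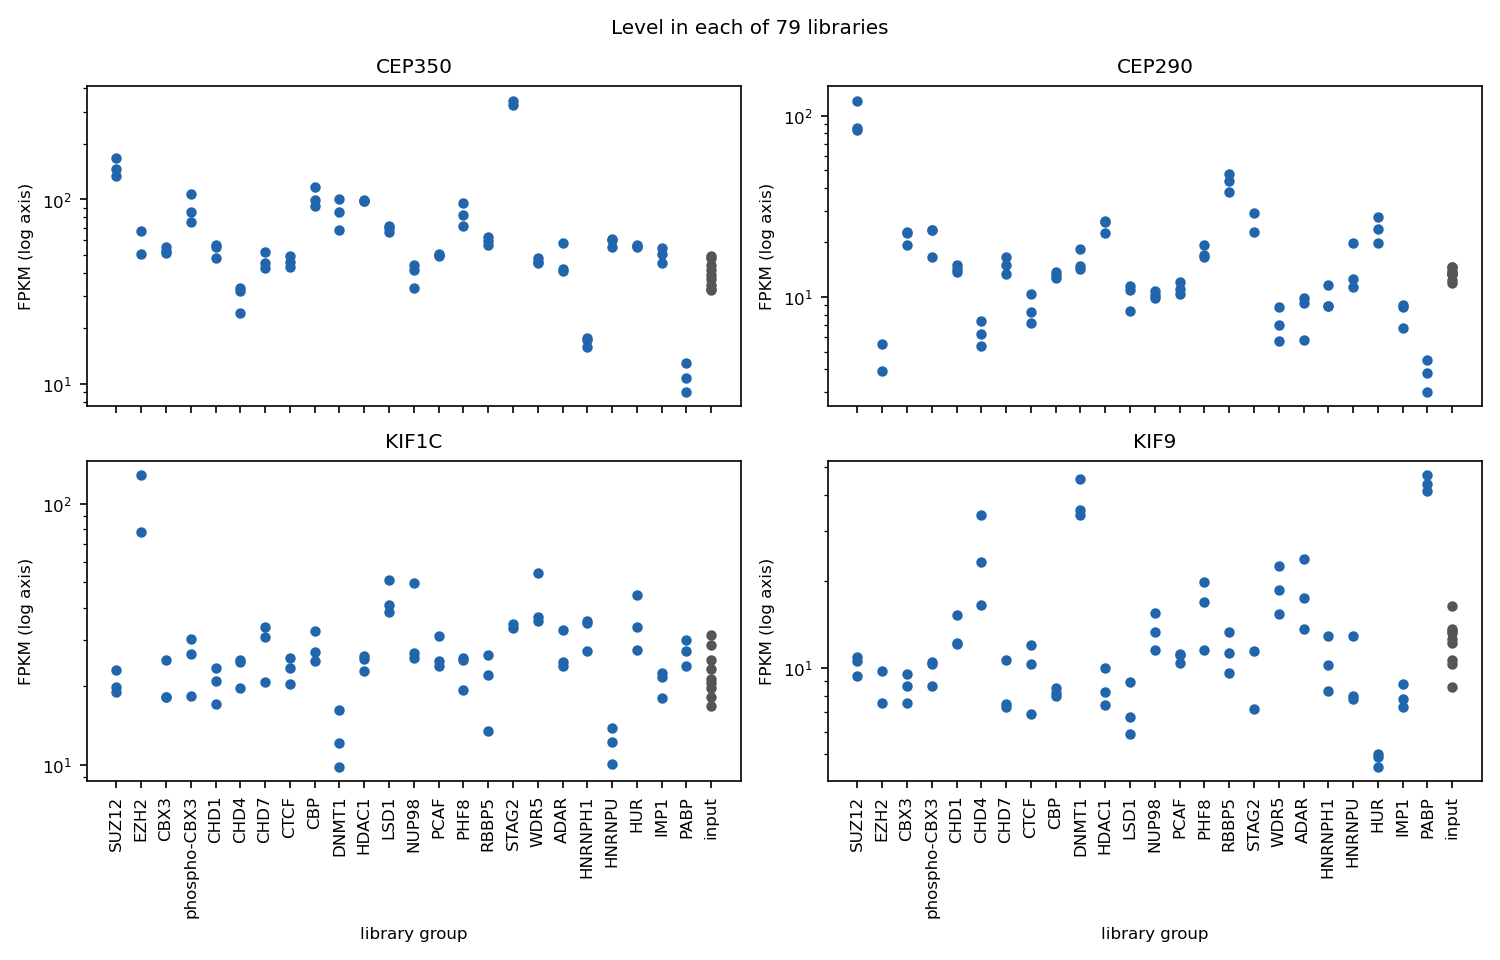
FPKM on a log axis in each of 79 libraries for CEP350, CEP290, KIF1C and KIF9, with fRIP libraries in blue by antibody target and inputs in grey. CEP350 is highest in both STAG2 libraries (343.9 and 325.3 FPKM), CEP290 in the 3 SUZ12 libraries, KIF1C in both EZH2 libraries and KIF9 in PABP and DNMT1.

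On the deposited scale the remaining chromatin targets each enriched at most 10 members. In CBP, a histone acetyltransferase, 10 were enriched, where 9.08% of all genes were, and 0 depleted by limma, where 3.78% were. KIF18B, a regulator of astral microtubules, led with 52.0, 57.8 and 73.5 FPKM against 11.2 to 17.7 (2.07 ± 0.14). In phospho-CBX3 10 were enriched and 0 depleted by limma (2.58% and 2.91% of all genes). In CBX3, a heterochromatin protein, 9 were enriched and 0 depleted by limma (7.45% and 3.65% of all genes). Against the nearest input sets the enriched members became 5 in phospho-CBX3 and 6 in CBX3, where 1.23% and 5.35% of all genes were. CEP152 led in phospho-CBX3 with 82.8, 93.1 and 93.9 FPKM (1.75 ± 0.14), and KIF5A in CBX3 (1.42 ± 0.32).

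CHD7, a chromatin remodeler, had 3 enriched members, where 0.990% of all genes were, and 0 depleted by limma, where 0.896% were. CEP192 measured 137, 129 and 91.0 FPKM there, all above its inputs (1.60 ± 0.13), followed by KIF15 (1.18) and CEP164 (1.00). RBBP5 had 1 enriched member (2.28% of all genes enriched, 0.731% depleted), CEP290, with 47.6, 43.6 and 38.2 FPKM (1.60 ± 0.14), the next highest level of this mRNA after SUZ12. DNMT1 had 4 (9.56% enriched, 6.88% depleted), with KIF9 highest at 34.0, 35.5 and 45.4 FPKM (1.56 ± 0.17). LSD1 had 3 (0.814% enriched, 6.66% depleted), the cargo kinesins KIF3C (1.59), KIF3B and KIF21B. PHF8 had 2 (3.18% enriched, 1.71% depleted), CEP350 (1.05) and CEP44. In CHD4 CEP19 was enriched (1.03, with 2.91% of all genes) and KIF20B depleted (−1.20, with 9.79%).

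WDR5 also enriched CEP19 (1.08, 3.90% of all genes) and had KIF5A depleted (−1.05, 6.71% of all genes). The KIF5A libraries of WDR5, at 12.1, 9.56 and 3.42 FPKM, overlapped the inputs, and against the nearest input set the gene was not called (−0.51). In NUP98 the one enriched member, CEP97 (0.263% of all genes enriched, 5.11% depleted), which restrains cilium formation, stood at 87.0, 8.36 and 6.06 FPKM against 6.16 to 8.96 in the inputs. Only the library of replicate 1 was above them. Without it the log2 fold change went from 1.12 to −0.03 (adjusted p = 0.93 in limma), and the exact permutation p with it was 0.15. CHD1, CTCF and PCAF had no member called by limma, where 0.424%, 0.424% and 0.515% of all genes were enriched and 1.00%, 0.790% and 8.54% depleted.

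Among the RNA-binding targets, HNRNPH1, a splicing regulator, enriched 6 members (24.5% of all genes) and depleted 7 (7.90% of all genes), 5 of them mitotic kinesins. Against its nearest input set it enriched 3 and depleted 6, where 19.8% and 6.33% of all genes were. CEP164, a distal appendage protein, rose to 91.5, 101 and 117 FPKM from 13.3 to 33.5 (2.03 ± 0.21), and KIF2C fell to 35.4, 37.5 and 33.8 FPKM, all below its inputs (−1.72 ± 0.12). ADAR, the adenosine deaminase, enriched 9 (26.6% of all genes) and depleted 0 by limma (4.31%). HUR enriched 2 (6.42% of all genes), CEP70 most (1.32), and depleted 2 (6.93% of all genes), KIF9 most (−1.18). IMP1 enriched 2 (4.23% of all genes), CEP57 most (1.12), and depleted KIF22 (−1.15, 10.5% of all genes). HNRNPU enriched 1 (13.1% of all genes enriched, 2.52% depleted), KIF26B (1.58).

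Against their nearest input sets RBBP5 enriched 2 members (2.69% of all genes), CHD4 enriched 2 and depleted 2 (5.16% and 14.5%), and IMP1 depleted 3 (13.8%).

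Several of these counts rest on the scale of the libraries. When every library was centred on a common median, ADAR went from 9 members enriched to 0 enriched and 23 depleted (11.6% and 35.2% of all genes), its median of all genes moving from 0.29 to −0.69. HNRNPH1 went from 6 enriched and 7 depleted to 1 and 21 (8.59% and 22.1% of all genes, median from 0.34 to −0.40). The reverse held for PCAF and LSD1, each of which had 14 of 57 members enriched after centring (11.8% and 4.76% of all genes). IMP1 then had 9 and WDR5 7, shares of 15.8% and 12.3% beside 12.5% and 9.52% of all genes. PHF8 and HNRNPU had 0 enriched by limma after centring (1.29% and 4.66% of all genes), CHD7 2 (0.908%) and HUR 1 (2.72%), and DNMT1 had 6 (11.8%), CHD4 2 (10.4%) and STAG2 2 (1.22%). The depleted calls of KIF20B in CHD4, KIF22 in IMP1 and KIF5A in WDR5 were lost on that scale, where 4.55%, 3.62% and 2.66% of all genes were depleted, and HUR had 3 depleted members (10.6%). HNRNPU then had 2 depleted members, where 3498 of 25442 genes were depleted. In SUZ12 centring left 21 CEP and 17 KIF mRNAs enriched (14.8% of all genes) and the median of all genes moved from 0.01 to −0.01.

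At an unadjusted p under 0.05, with no fold required, the targets with no depleted member still had some of the 57 members below input. ADAR had 14 (24.6%, with 17.9% of all genes). There were 10 in DNMT1 (17.5% and 20.4%), 7 in NUP98 (12.3% and 22.1%), 6 each in CBP, LSD1 and HNRNPU (10.5%, with 20.6%, 25.9% and 15% of all genes) and 5 in RBBP5 (8.77% and 11.4%). There were 4 in PHF8 (7.02% and 10.8%), 3 each in CBX3 and CHD7 (5.26%, with 17.0% and 10.2%), 2 in HDAC1 (3.51% and 18.1%) and 1 in phospho-CBX3 (1.75% and 17.8%). CHD1, CTCF and PCAF, with no call at all, had 9, 15 and 20 members above input by the same measure, with 12.6%, 13.4% and 13.4% of all genes. Below input they had 4 (7.02% of members and 10.6% of all genes), 9 (15.8% and 12.1%) and 6 (10.5% and 28.0%).

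Over all 24 fRIPs, 134 of 1368 pairs of a member and a target were enriched (9.80%) and 33 depleted (2.41%), where 6.90% and 5.52% of all pairs of a tested gene and a target were. With centred libraries 59 were depleted, still a smaller share than that of all such pairs. Without SUZ12 the enriched pairs were 94 of 1311 (7.17%), with 9.36% for CEP and 5.33% for KIF, where 6.53% of all such pairs of the other 23 fRIPs were. On the deposited scale the members' share was thus near that of all genes and that of KIF below it. With centred libraries the shares of both families lay above that of all genes. CEP164, CEP250 and CEP350 were enriched in 7 fRIPs each. KIF20B was depleted in 3. CEP41, CEP68, KIF19, KIF1A, KIF1B, KIF2A and KIF5B were enriched in none.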

How the data were processed

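The authors aligned reads to hg19 with TopHat and estimated gene and isoform FPKM with Cuffdiff and Cuffnorm on GENCODE genes, after base calling with CASAVA 1.4 (named in the submitters' processing notes). The deposited values are FPKM per library. Of the authors' comparison tables only the pooled input value was used, and the fold, p-value and q-value columns were not. Fixation used 0.1% formaldehyde.

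FPKM was transformed to log2(FPKM + 1). limma 3.58.1 (R 4.3.3) was fitted with trend and a mean per target and 1 mean of the 9 inputs, over all 79 libraries. P-values were Benjamini-Hochberg adjusted over all 25442 genes tested, and a call needed 0.05 and 2-fold. Single genes had exact two-sided permutation tests (scipy 1.17.1). Scripts were tested on simulated data. Depth limits precision most in the shallowest library (1.905 M fragments, M for 1e6).

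Exon number, length and motifs came from the hg19 annotation lifted from a later GENCODE release, weighted by isoform FPKM or from the longest transcript. The "nearest input set" is the set of 3 inputs whose mean lies closest to that pooled input value for a target, and centred libraries have a common median over tested genes.

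The members and lists were chosen with earlier results of these data known. Genes were named by rule. In SUZ12 it took the 8 CEP and 8 KIF genes of largest enrichment, and any depleted one. The enriched ones also needed every SUZ12 library above every input. It also took the 3 of each family highest in input, and the largest rise and fall in each other fRIP. The SUZ12 contrasts gave 2 each way, and the lists 3 up and 1 down each. Other named genes were chosen after their values were seen. Alternatives were other filters, pseudocounts, input sets, centring, a replicate block and leaving out libraries. Same-numbered libraries deviated together (r over 0.1 for every pair) in CHD1, NUP98, PCAF and WDR5, where the block changed no call, and not in SUZ12 (−0.01 to 0.28). A result that the naming rule covers is not reported here.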

Additional observations from a re-analysis of the deposited data

Results flagged for a closer look

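In 4 of the 33 genes screened, 1 input library lay far from the other 8. It was the same library each time, replicate 3 of input set 2. CEP57 measured 60.43 FPKM there against a median of 88.89 over the inputs, CEP70 14.97 against 24.72, KIF18A 16.42 against 25.45, and KIF5A 5.168 against 18.46. The gap to the next library took 0.672, 0.588, 0.633 and 0.669 of the whole range of the inputs, in that order. Chance flags about 1 in 20 groups, and the 4 genes share the library. Without input set 2 the SUZ12 log2 fold changes were 0.93 for CEP57, 2.02 for CEP70, 2.33 for KIF18A and 1.73 for KIF5A, the last 3 still enriched by limma. The WDR5, CBX3, phospho-CBX3, HDAC1, CBP and HNRNPH1 calls of KIF5A use the same inputs.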

How the results depend on the processing

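The SUZ12 counts kept their direction under every alternative run: 21 to 22 CEP and 13 to 19 KIF mRNAs were enriched when 1 replicate or input set was left out, the 13 without SUZ12 replicate 3. The depleted count was 0 to 1: CEP19 was not called against input set 1 only, against the nearest input set, without replicate 2 of every fRIP, without SUZ12 replicate 2 alone, or without input set 3 (0 in each). Leaving out 1 replicate gave 10 to 11 members enriched in EZH2, 32 to 36 higher in SUZ12 than in EZH2, 34 to 39 higher than in the other 23, and 118 to 149 enriched and 30 to 38 depleted pairs. Centring raised depleted pairs from 33 to 59, still a smaller share than that of all pairs of a gene and a target on that scale. The longest transcript raised the members' median exon number from 13.2 to 20. With replicate number as a block, 21 CEP and 19 KIF mRNAs were enriched and 1 depleted in SUZ12, 34 were higher than in EZH2, and 135 pairs were enriched and 33 depleted, 1 pair more than without the block, in STAG2, where the blocked fit drops the library without a matching number and so rests on 1 library. CEP57, at the threshold, was called under 9 alternatives (1.00 to 1.14). CEP19, KIF18B and KIF22 lost calls under some. No SUZ12 call turned direction, while KIF1C (−0.27 to 0.15), KIF26B (−0.23 to 0.17) and KIF9 (−0.38 to 0.06), which were not called in SUZ12, lay on both sides of 0. CEP97 in NUP98 went from 1.12 to −0.03 without replicate 1, and centring took ADAR from 9 enriched members to 23 depleted. Depth was estimated from FPKM, so counting error in low genes such as CEP19 was not modelled.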
